A study of Drosophila melanogaster with 12 samples.

Results

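The 4 membrane carrier genes of Drosophila melanogaster, Nckx30C, Picot, Mpcp2 and Oatp33Eb, were followed in fly heads after feeding with the convulsant pentylenetetrazole (PTZ) together with the antiepileptic drug levetiracetam (LEV). They are 4 of the 6793 genes that a probe of the array names alone. They were chosen by their measured values. Nckx30C and Picot lie at the low end of the 12 h comparison, and Oatp33Eb at the low end of the 7 d comparison. For Nckx30C and Oatp33Eb this holds only when the dye-swapped arrays are turned, as explained below. Mpcp2 was picked on its difference between 7 d and 12 h. Those values are given below as a description, with no test.

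The treated flies were unmated Oregon-R males that ate 8 mg/ml PTZ and 5 mg/ml LEV for 12 h, for 2 d, or for 4 d followed by 3 d on PTZ alone (called 7 d below). Control flies of the same strain and sex stayed on drug-free food for the same time, with 30 flies to a vial, and RNA came from pools of frozen heads. Their age is labelled 3 to 4 days, while the growth text adds 10 to 11 days of maintenance before treatment. The design text names LEV as the drug of the last 3 d, whereas the treatment protocols name PTZ, which is used here. Each of the 12 two-colour arrays, 4 per time, set a treated pool against a control pool, so a value is a log2 ratio of treated over control and not a level. On replicates 1 and 2 of each time the treated RNA carried Cy5, and on replicates 3 and 4 the dyes were swapped. The source labels of replicate 4 of 2 d and replicate 1 of 7 d call both RNAs untreated, against their treatment protocols, which were followed.

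The sources do not settle which way the ratio runs on the swapped arrays. Values are therefore given turned, as if every deposited ratio were Cy5 over Cy3, and also as deposited, which means taken as treated over control without turning. Replicates 1 and 2 read the same both ways. Each array was centred on the median of its probes. In a ratio from whole heads, fewer cells of a type and less RNA per cell cannot be told apart.

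The 4 carriers act at different membranes. Nckx30C is a potassium-dependent sodium-calcium exchanger of the plasma membrane, which moves calcium out of the cell in exchange for sodium and carries potassium with it. Such exchangers help nerve and photoreceptor cells to clear calcium after activity. Picot is a predicted inorganic phosphate cotransporter of the SLC17 family. Mpcp2 is a mitochondrial phosphate carrier of the SLC25 family, which brings phosphate into the matrix for ATP synthesis. Oatp33Eb belongs to the organic anion-transporting polypeptides, which take up bulky organic anions.

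How often a gene was measured set what could be said of it, because only spots that passed the authors' filter hold a value. Mpcp2 had a value on 12 of 12 arrays, Nckx30C on 6, Picot on 5 and Oatp33Eb on 4. Of the 6793 genes, 8 were on as many arrays as Mpcp2 (0.118%), and 3.72%, 5.61% and 8.05% were on at least as many as Nckx30C, Picot and Oatp33Eb. The median gene was on 1 array, and 2086 genes were on none. At 2 d, Mpcp2 was the only one of the 4 carriers with a value. Spots with a value ranged from 1394 to 14042 per array, and the array medians before centring ranged from -0.69 to 0.85. Eye markers had a value for 8 of the 8 on the array and the single neuronal marker on it, nSyb, had one on 2 arrays, while 0 of 3 testis markers on the array had any. Of 5 head fat body markers on the array 3 had a value, among them the yolk protein gene Yp2 on 8 arrays, although the flies are labelled male, and Yp1 and Yp3 had none. The single muscle marker on the array, Act88F, had a value on 5 arrays.

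**Figure D1:**
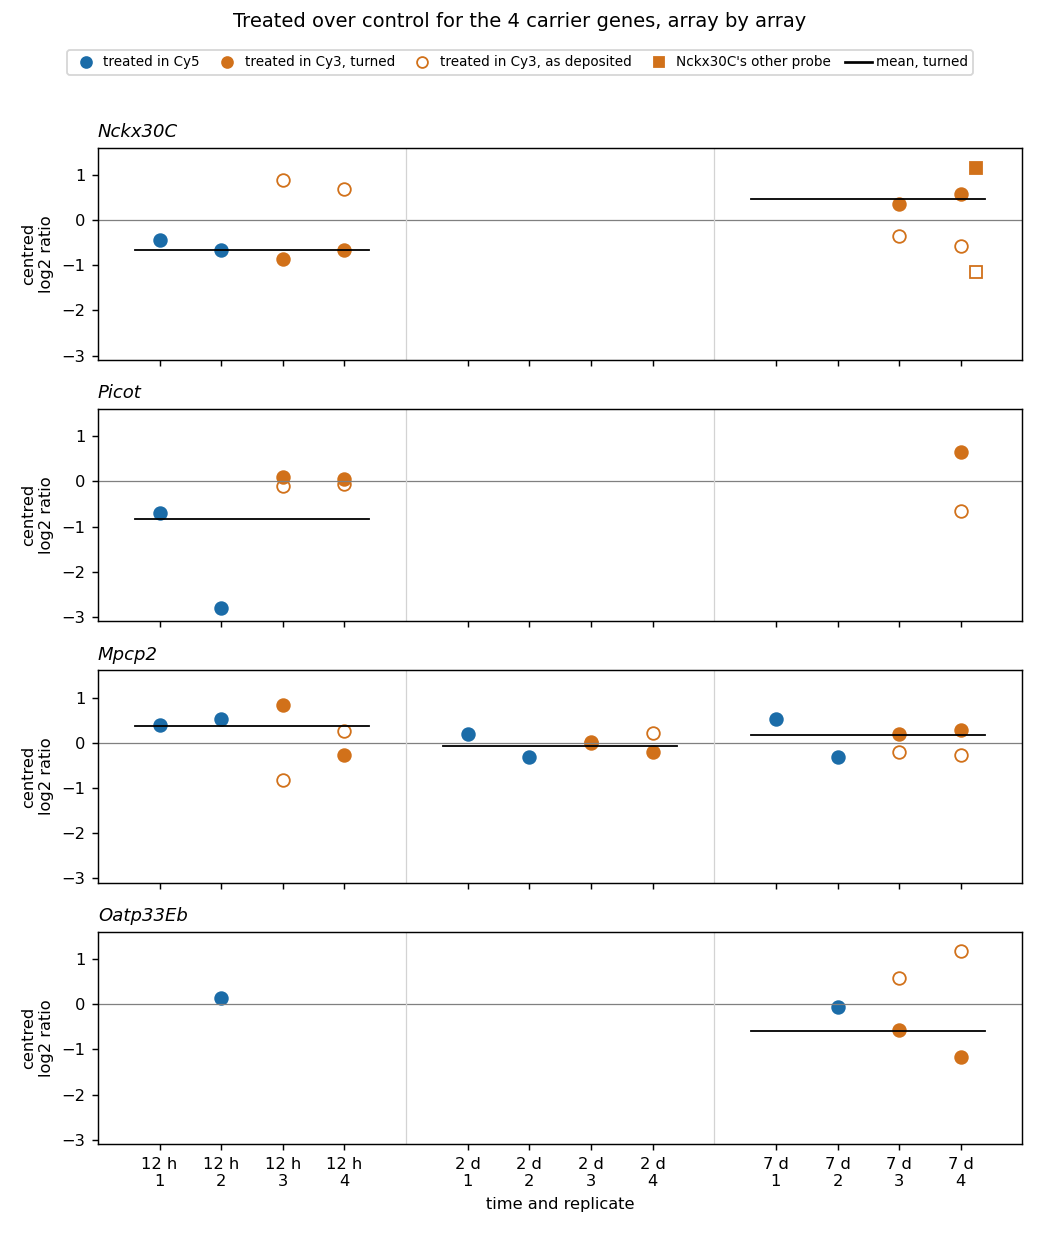
Centred log2 ratio of treated over control (vertical axes) for the 4 carrier genes on each array (horizontal axis, time and replicate). Filled points are turned values, open circles and the open square the swapped arrays as deposited, squares the other Nckx30C probe, and lines the turned mean where at least 2 arrays hold a value. Nckx30C lies below 0 on all 4 arrays at 12 h only when the swapped arrays are turned, and Mpcp2 stays between -0.83 and 0.83 in both orientations.

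Nckx30C was below the array median at 12 h on the replicates that need no turning, with centred log2 ratios of -0.45 in replicate 1 and -0.67 in replicate 2. On the swapped replicates 3 and 4 it was -0.87 and -0.67 when turned, and 0.87 and 0.67 as deposited. The turned values thus lay close together on one side of 0, whereas the deposited ones fell into a pair on each side. Their mean was -0.67 ± 0.17 when turned (SD, n = 4), a ratio of 0.63, and 0.11 ± 0.78 as deposited. Of the 981 probes on all 4 arrays at 12 h, 9.79% were below 0 on every array when turned. Of all 1283 probes on at least 3 of the 12 h arrays, 10.8% had a lower turned mean than Nckx30C and 4.36% a smaller SD, and among the 341 of them with a single gene name the shares were 2.05% and 6.45%. As deposited, 55.7% of the 1283 probes had a lower mean. Nckx30C was chosen for this low turned mean, so its place is a description. Without centring, the turned mean was -0.16 ± 0.29.

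At 7 d the same Nckx30C probe was measured only on the swapped arrays. It read 0.35 in replicate 3 and 0.58 in replicate 4 when turned, and -0.35 and -0.58 as deposited. Set against the swapped arrays of 12 h alone, which share that dye orientation, the 7 d values lay on the opposite side of 0 whichever way the ratio runs. With both 7 d arrays in 1 orientation, no test of the time difference was made. A second Nckx30C probe held a value on replicate 4 of 7 d alone, at 1.15 when turned and -1.15 as deposited, on the same side as the first probe but further from 0. Before centring, the first probe read -0.39 and 1.13 on these arrays when turned, so its common side at 7 d came with the centring.

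Picot at 12 h was lowest on replicate 2. After centring it read -0.70 in replicate 1 and -2.81 in replicate 2. On the swapped replicates 3 and 4 it was then near 0, at 0.10 and 0.05 when turned and -0.10 and -0.05 as deposited. The Picot mean was -0.84 ± 1.36 when turned and -0.92 ± 1.29 as deposited (SD, n = 4), so the spread exceeded the mean in both. Without replicate 2 the turned mean was -0.18. As deposited, all 4 values were below 0, as were those of 7.34% of the 981 probes. Of the 1283 probes on at least 3 of the 12 h arrays, 7.25% had a lower turned mean than Picot and 5.69% a lower mean as deposited. By dye, the mean was -1.75 with the treated RNA in Cy5, against 0.08 turned and -0.08 as deposited in Cy3. Before centring, the swapped replicates 3 and 4 were not near 0, at 0.799 and 0.615 when turned and -0.799 and -0.615 as deposited. Replicates 1 and 2 then read -0.78 and -1.96. The uncentred mean was -0.33 ± 1.29 when turned and -1.04 as deposited, with all 4 deposited values below 0.

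The adjacent duplicate spots of Picot differed most on replicate 2 of 12 h, at -1.25 and -2.67 before centring. On replicate 3 only 1 of the 2 spots held a value. The second spots alone gave a 12 h mean of -1.33, without replicate 3, and the first spots alone -0.70, with it. These means therefore do not cover the same arrays. At 7 d Picot was measured on replicate 4 only, at 0.65 when turned and -0.65 as deposited.

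**Figure D2:**
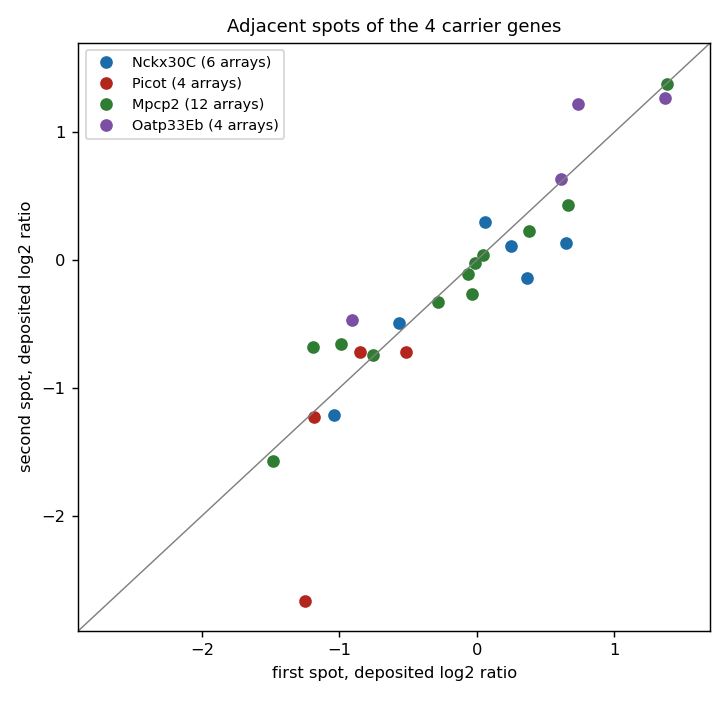
Deposited log2 ratio of the second spot (vertical axis) against the first spot (horizontal axis) for each carrier gene on each array that holds both. The line marks equal values; Picot on replicate 2 of 12 h, at -1.25 and -2.67, lies farthest from it, and the spots of the 12 Mpcp2 points differ by at most 0.511.

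Mpcp2 was the carrier with the fullest record. At 12 h its turned values were 0.39, 0.53, 0.83 and -0.26 in replicates 1 to 4, where the swapped replicates 3 and 4 read -0.83 and 0.26 as deposited. At 2 d the turned values were 0.18, -0.31, 0.01 and -0.21, with -0.01 and 0.21 as deposited on the swapped arrays. At 7 d they were 0.53, -0.31, 0.20 and 0.27, with -0.20 and -0.27 as deposited. Every time thus had arrays on both sides of 0, and the ranges of the 3 times overlapped.

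The turned Mpcp2 means were 0.37 ± 0.46 at 12 h, -0.08 ± 0.22 at 2 d and 0.17 ± 0.35 at 7 d (SD, n = 4 each). As deposited they were 0.09 ± 0.62, 0.02 ± 0.24 and -0.06 ± 0.39. The turned order was 12 h above 7 d above 2 d. The differences were -0.20 for 7 d minus 12 h, 0.26 for 7 d minus 2 d and -0.46 for 2 d minus 12 h. Beside them stand the SDs of 0.22 to 0.46 over arrays, and no test of these differences is given. The 2 d comparison, which took no part in choosing Mpcp2, gave a limma estimate of -0.08 with a standard error of 0.22 and an adjusted p of 0.995. The limma unadjusted p was 0.721, and 0.995 was also the smallest adjusted p of all 1001 probes at 2 d. Without the arrays whose source labels conflict, the turned mean was -0.04 at 2 d (limma adjusted p = 0.994) and 0.06 at 7 d.

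The difference between times that singled out Mpcp2 depended on the centring. With centring, 7 d minus 12 h was -0.20 and 2 d minus 12 h was -0.46. Without it they were -1.08 and -1.06, since the uncentred means were 0.88 ± 0.67 at 12 h, -0.18 ± 0.38 at 2 d and -0.20 ± 0.76 at 7 d. The median over all tested probes moved the same way, at 0.47, -0.17 and -0.23 before centring at 12 h, 2 d and 7 d, and -0.05, -0.06 and 0.11 after it. The third difference, 7 d minus 2 d, was 0.26 with centring and -0.02 without.

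Across the 12 arrays the turned Mpcp2 values spanned 1.14 log2 units, against a median span of 3.98 for the 369 probes on all arrays, of which 1.08% spanned less. Only 8 of these 369 probes have a single gene name, so that median mostly describes probes without one. The other 7 genes measured on every array were Sfxn1-3, CG10019, jdp, TrxT, Eaat2, Jhbp13 and CG7781, and their spans ran from 1.79 to 4.06. Adjacent Mpcp2 spots differed by a median of 0.069 and never in sign. Among the 62 single-name probes on at least 10 arrays, the SD of Mpcp2 was 0.377 against a median of 0.540, and 8 probes had a smaller one. These spans and SDs are of turned values. As deposited, the Mpcp2 values ran from -0.83 to 0.53, and no share of probes was computed in that orientation.

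**Figure D3:**
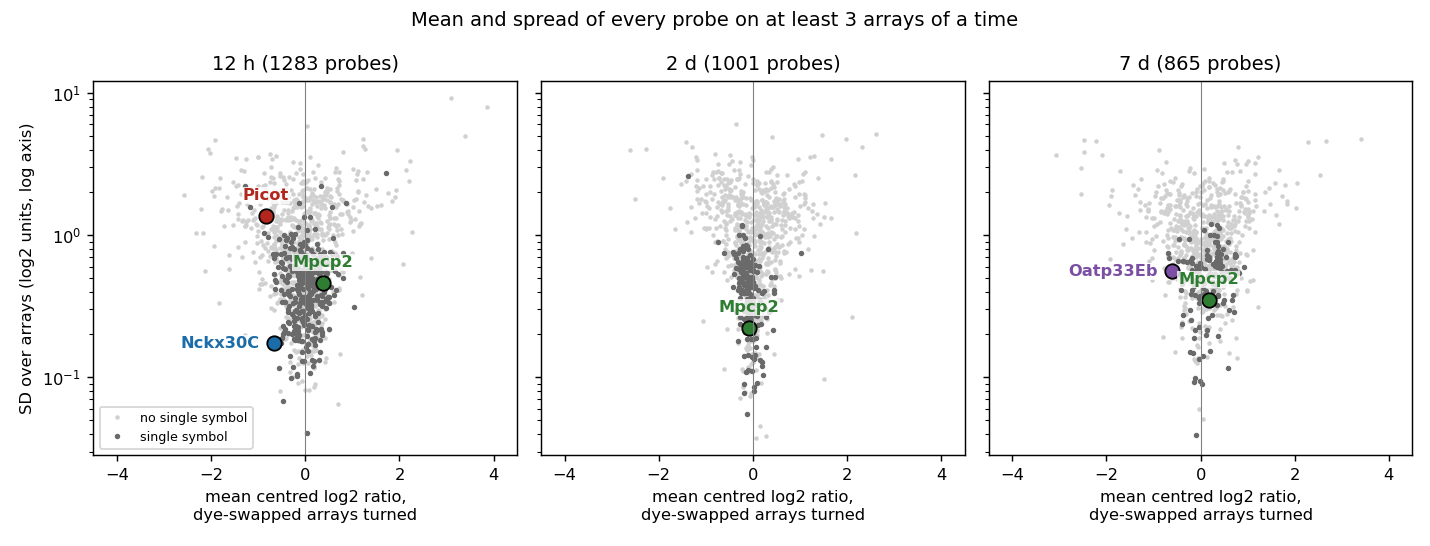
Mean centred log2 ratio with swapped arrays turned (horizontal axis) against the SD over arrays (vertical log axis) for each probe on at least 3 arrays of a time: 1283 probes at 12 h, 1001 at 2 d and 865 at 7 d. Dark points are probes with a single gene name; Nckx30C sits low at -0.67 with an SD of 0.17, and Picot high at -0.84 with an SD of 1.36.

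Oatp33Eb had values at 7 d on 3 arrays and at 12 h on 1. At 7 d it read -0.06 in replicate 2, and on the swapped replicates 3 and 4 it read -0.57 and -1.17 when turned and 0.57 and 1.17 as deposited. After centring, the low turned mean therefore came from the swapped arrays, while the only array with the treated RNA in Cy5 was near 0. Before centring, that array was not apart: replicates 2, 3 and 4 read -0.69, -1.32 and -0.62 when turned, with a mean of -0.88 ± 0.38. The centred mean was -0.60 ± 0.56 when turned and 0.56 ± 0.62 as deposited (SD, n = 3). Of the 262 probes on exactly 3 of the 7 d arrays, 8.02% were below 0 on all 3 when turned. Of the 865 probes on at least 3 of these arrays, 10.8% had a lower turned mean than Oatp33Eb and 80.2% a lower mean as deposited. Without replicate 4 the turned mean was -0.32, and without replicate 2 it was -0.87. On replicate 2 of 12 h Oatp33Eb read 0.13 after centring and 0.98 before it.

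Across the whole array, limma called no probe at an adjusted p of 0.05 with the swapped arrays turned. This count is background, and nothing is read from it for the values that chose the 4 genes. The calls were 0 of 1283 probes at 12 h, 0 of 1001 at 2 d and 0 of 865 at 7 d, and 0 of 658 in each of the 3 differences between times, or 0% in every case. At an unadjusted p under 0.05 there were 58, 16 and 34 probes at 12 h, 2 d and 7 d, where 64.2, 50.0 and 43.2 would fall there if no probe differed. As deposited, 103, 133 and 69 probes did so, and again 0 passed the adjusted threshold. In the differences, 20 probes had a limma unadjusted p under 0.05 for 2 d minus 12 h, 26 for 7 d minus 12 h and 13 for 7 d minus 2 d. In each, 32.9 would fall there if no probe differed.

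Of 53 other carrier genes on the array, few were measured often enough to test, and none passed. On the array were 3 sodium-calcium exchangers, 15 SLC17 carriers, 25 mitochondrial SLC25 carriers, 6 organic anion transporters and 8 other cation and chloride transporters or pumps, members included. Of these, 3, 9, 17, 3 and 8 had any value. The other carriers reached 3 arrays of a time in 6 cases: 3 at 12 h with a median of 0.18, against -0.05 over all probes, 2 at 2 d with a median of -0.15, against -0.06, and 1 at 7 d.

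At 12 h CG9254, an SLC17 family gene, averaged -0.42 ± 0.93 when turned (SD, n = 3; limma adjusted p = 0.892) and 0.56 as deposited. Mtch, a mitochondrial carrier homologue, averaged 0.29 ± 0.58 when turned (SD, n = 4; limma adjusted p = 0.882) and -0.43 as deposited. The sodium-hydrogen exchanger Nhe3 averaged 0.18 ± 0.63 when turned (SD, n = 4; limma adjusted p = 0.942), and -0.45 with all 4 arrays below 0 as deposited. Each of these 3 genes changed side with the orientation. Without replicate 3 the turned means were 0.105 for CG9254, 0.048 for Mtch and -0.11 for Nhe3. For CG9254 the first spots alone gave 0.46 and the second spots alone -1.29, on opposite sides of 0.

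At 2 d CG3036, another SLC17 family gene, averaged 0.10 ± 0.55 when turned (SD, n = 4; limma adjusted p = 0.995). As deposited it was -0.47 ± 0.17 and below 0 on all 4 arrays, as were 14.7% of 740 probes. Leaving out 1 array at a time gave turned means of CG3036 from -0.06, without replicate 4, to 0.30, without replicate 2. Mtch at 2 d averaged -0.40 ± 0.54 when turned (SD, n = 3; limma adjusted p = 0.995) and -0.48 as deposited, on the same side in both, and -0.12 when turned without replicate 2. At 7 d nrv3, a beta subunit of the sodium-potassium pump, averaged 0.62 ± 0.50 when turned (SD, n = 3; limma adjusted p = 0.923) and -0.55 as deposited. It was above 0 on its 3 arrays when turned, as were 16% of the 262 probes on 3 arrays. The adjusted p of 0.995 at 2 d and 0.923 at 7 d were the smallest of any probe at those times, so they say little of a single gene. The limma unadjusted p was 0.760 for CG3036 and 0.312 for Mtch at 2 d, and 0.196 for nrv3 at 7 d.

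**Figure D4:**
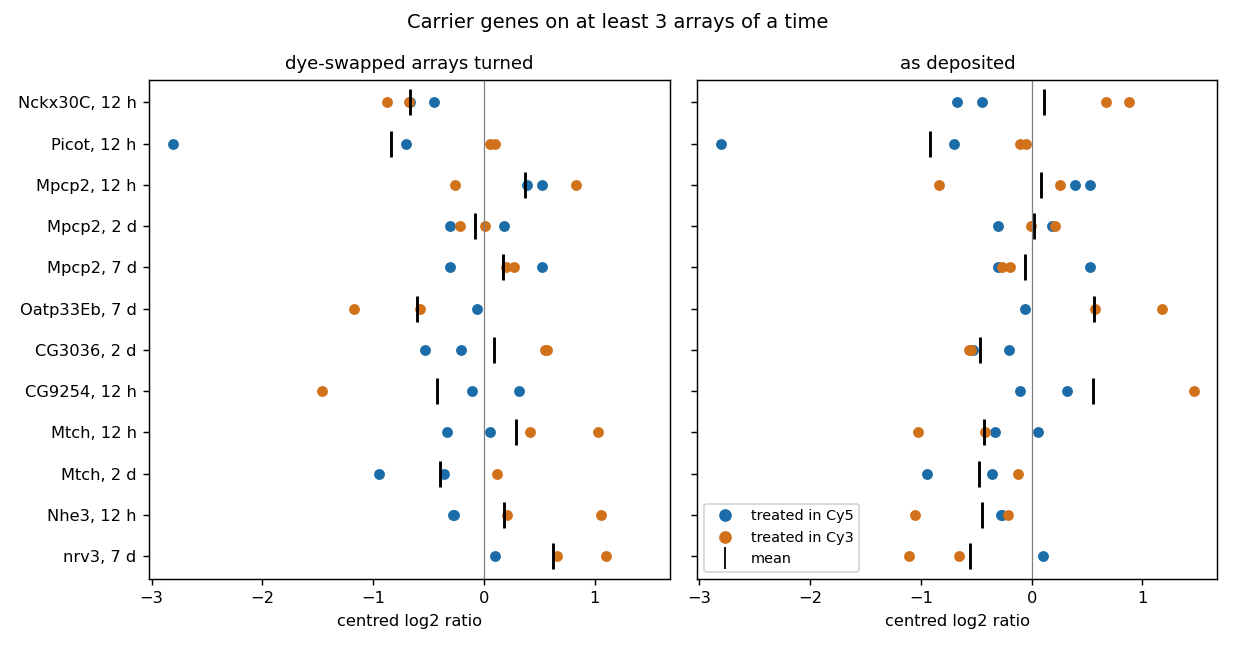
Centred log2 ratio of treated over control (horizontal axes) for every carrier gene on at least 3 arrays of a time (rows), with the swapped arrays turned (left) and as deposited (right). Points are arrays, by the dye of the treated RNA, and bars are means: the Nckx30C mean at 12 h is -0.67 on the left and 0.11 on the right, and that of Oatp33Eb at 7 d is -0.60 and 0.56.

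The genes whose array values lay nearest to those of a carrier were ranked by the root mean square (RMS) difference over at least 6 shared arrays, a measure that turning does not alter. For Nckx30C, over 87 candidates with a median of 0.805, they were CG2656 at 0.270, the nuclear receptor gene Hnf4 at 0.330 and CG16974 at 0.349, each over 6 arrays. For Mpcp2, over 252 candidates with a median of 0.522, they were thoc7, of the THO mRNA export complex, at 0.180 over 6 arrays, CG16799 at 0.211 over 6 and the translation factor gene eEF5 at 0.211 over 10. These are descriptions, and genes on an array share its dye and centring. Picot and Oatp33Eb were on too few arrays to be ranked.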

How the data were processed

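Log2 ratios were deposited by the authors for 27648 spots on each of 12 two-colour arrays. Per the submitters' design text, images were quantified in GenePix Pro 6.0, ratios normalized in Acuity 4.0, and spots kept by intensity, saturation, flags, pixel uniformity and signal over noise. The log base was read from the values, whose top is the upper end of the ratio range in log2. From these log2 values, adjacent duplicate spots were averaged into 13824 probes, swapped arrays were turned, each array was centred on its probe median, and gene names came from the platform annotation: 7558 probes have 1 symbol, 51 several and 6215 none. Updating by a RefSeq gene table matched 7447 probes.

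Probes on at least 3 of the 4 arrays of a time entered linear models with eBayes moderation (limma 3.58.1 under R 4.3.3), as the mean against 0 or as differences between times over 12 arrays. The p-values are two-sided and were adjusted over all probes by Benjamini-Hochberg at 0.05. The 4 genes were always named, other carriers were named from fixed lists where on 3 arrays of a time, and the 3 nearest genes by RMS difference. Members and lists were chosen with earlier results of these data known. Swapped arrays of 12 h and 7 d carry no number in the labels and are called 3 and 4 as names only. Replicates are described as biological, and their number limits the precision. Sequences and positions are not used here.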

Additional observations from a re-analysis of the deposited data

Results flagged for a closer look

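Nckx30C, 7 d minus 12 h, was singled out because every array of one time lay on the opposite side of 0 from every array of the other when the swapped arrays are turned. The 2 arrays of 7 d were above 0 and the 4 arrays of 12 h below 0, a difference of 1.13 on the log2 scale that was not tested. Nckx30C was chosen for its low 12 h value, so the 12 h side of this split was set by the choice. The rule was applied to carrier genes only, so no share of all probes is given. Before centring there was no such split: the turned values were -0.39 and 1.13 at 7 d, and replicate 2 of 12 h read 0.18. Both 7 d arrays carried the treated RNA in Cy3. As deposited and centred, both were below 0, while the 12 h arrays fell 2 on each side. With the swapped arrays turned, none of the groups of 4 arrays held a value of a carrier far from the others by Dixon's criterion. The criterion was not applied to the values as deposited. In that orientation Mpcp2 at 7 d read 0.53 in replicate 1, against -0.31, -0.20 and -0.27 in the others. Nhe3 at 12 h read -1.06 in replicate 3, against -0.26, -0.28 and -0.21.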

How the results depend on the processing

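Across the alternatives, 14 of 126 values of the 4 genes and 18 of 60 values of the other carriers changed sign. Some alternatives could not change a value, so these shares are not compared. They are an Mpcp2 difference without an array of the third time, and a dye term where both orientations held equally many arrays. Taken as deposited, Nckx30C at 12 h was 0.11, Mpcp2 at 2 d was 0.020, Oatp33Eb at 7 d was 0.56 and Mpcp2 at 2 d minus 12 h was -0.067. Without centring, Nckx30C at 12 h was -0.16, Mpcp2 was 0.88 at 12 h and -0.20 at 7 d, its differences 2 d minus 12 h and 7 d minus 12 h were -1.06 and -1.08, and 10 probes were called at 7 d against 0 with centring. As deposited and not centred, a setting chosen after seeing the data, Nckx30C at 12 h was -0.016, Oatp33Eb at 7 d was 0.42, Mpcp2 was -0.34 at 7 d and -0.14 for 7 d minus 2 d, and 1 probe was called at 12 h against 0. The cause was not tested.

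Leaving out 1 array at a time gave -0.74 to -0.60 for Nckx30C at 12 h, -1.15 to -0.18 for Picot at 12 h, -0.87 to -0.32 for Oatp33Eb at 7 d, and 0.22 to 0.58, -0.17 to -0.01 and 0.06 to 0.33 for Mpcp2 at 12 h, 2 d and 7 d. The fit with a replicate block used replicates 1 and 2 only, so every swapped array was left out. Being balanced over the times, the block itself could not move the differences. In that fit the Mpcp2 differences were -0.52 for 2 d minus 12 h, -0.35 for 7 d minus 12 h and 0.17 for 7 d minus 2 d. It called 0 of 500 probes. Over these 500 probes, the replicate 1 minus replicate 2 deviations of 2 times correlated at 0.02, -0.02 and 0.09. These values cannot decide whether a number marks a shared set, which the labels do not say. For the other carriers, leaving out 1 array gave -0.79 to 0.105 for CG9254, 0.05 to 0.50 for Mtch and -0.11 to 0.33 for Nhe3 at 12 h, -0.06 to 0.30 for CG3036 and -0.65 to -0.12 for Mtch at 2 d, and 0.38 to 0.88 for nrv3 at 7 d. Few arrays per gene and the spots without a value limit every statement here.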
